A study of Mus musculus with 10 samples.

Results

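Purine salvage and nucleoside uptake are described here through 7 genes taken by name: *Nt5e*, *Enpp3*, *Slc28a1*, *Slc28a2*, *Ada*, *Pnp* and *Xdh*. Of the 35275 gene IDs counted in each library, 6 matched these members by symbol, and reads at the exons of *Pnp* were counted under a further ID, so that 7 entries are described. RNA-seq was run on sections of proximal small intestine of 5 KO and 5 WT mice, a library for each mouse. The methods of the study describe the KO mice as lacking *Zip14* (*Slc39a14*), a zinc and manganese importer, in the whole body, while the WT mice were of the same strain, with both genotypes taken from matings of heterozygous mice. The title of the series speaks instead of a deletion in enterocytes, and the labels of the samples give only WT or KO and an age of 8-10 weeks, the same for every mouse. No treatment is named for either group, and sex was not given per mouse.

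Purine nucleotides outside the cell are cut stepwise to nucleosides by enzymes anchored in the plasma membrane, and the nucleosides are then taken up by sodium-coupled carriers. Inside the cell, adenosine is deaminated to inosine, inosine is split to hypoxanthine, and hypoxanthine is either rebuilt to a nucleotide (salvage) or oxidized to uric acid. Enterocytes of the villus meet nucleosides from the diet, and several of these enzymes and carriers are abundant in the differentiated cells of the upper villus.

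Before the members are described, 2 features of the libraries need to be given. Markers of the ileum were higher in every KO library than in any WT library: the 5 ileal genes summed to between 199 and 237 CPM (reads of a gene scaled to the size of its library) in WT libraries and to between 3245 and 10499 CPM in KO libraries, and all 5 were called higher. The sum in WT libraries came almost wholly from *Slc51a* (176 to 210.5 CPM) and *Slc51b* (19.5 to 23.9 CPM), which export bile acids and are named after their values were seen. *Fabp6*, the ileal bile acid binding protein, had 0.779 ± 0.607 CPM in WT and 5515 ± 2861 CPM in KO mice (SD, n = 5 each), and *Slc10a2* and *Fgf15* were likewise near 0 in WT libraries. Of 6 genes of the proximal intestine, 4 were tested and 2 were lower, the transcription factors *Onecut2* (-6.24) and *Gata4* (-3.56). *Cybrd1* (-0.32, adjusted p = 0.401) and *Slc40a1* (0.66, adjusted p = 0.236), named after their values were seen, did not pass. All tissue was labelled proximal intestine, and since *Fabp6*, *Slc10a2* and *Fgf15* were near 0 in every WT library and high in every KO library, a difference in the stretch of intestine sampled and an effect of the genotype cannot be told apart for any gene below. KO replicates 2 and 3 also stood apart from the other KO libraries in the close copies *Pnp2* and *Gm14085*, so the log2 fold changes are also given without these libraries.

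Of the 7 entries, 5 were lower in KO mice at an adjusted p under 0.05 (edgeR's quasi-likelihood test), and 0 were higher. All 7 had a fold change below 1 and an unadjusted p under 0.05, and DESeq2 also called 5 lower and 0 higher. The members called lower were *Nt5e*, *Enpp3*, *Slc28a2*, *Ada* and *Xdh*, and in each of these all 5 KO libraries lay below all 5 WT libraries. Among the 15610 genes tested, 13.9% were called lower and 16.0% higher, 10.8% had all KO libraries below all WT libraries, and 10.2% had all above. The median log2 fold change of the 7 entries was -1.93, and that of all genes tested was 0.03. The remaining entries, *Slc28a1* and the *Pnp* locus, had lower means in KO mice but overlapped between the groups. *Slc39a14* itself had 260.4 ± 62.5 CPM in WT and 102 ± 32.9 CPM in KO mice (log2 fold change -1.35, adjusted p = 0.00184, edgeR), with no overlap. Between 1636 and 2842 of its reads remained in each KO library, so these counts do not show a loss of the gene, and a count over the whole gene cannot show which part is deleted.

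**Figure D1:**
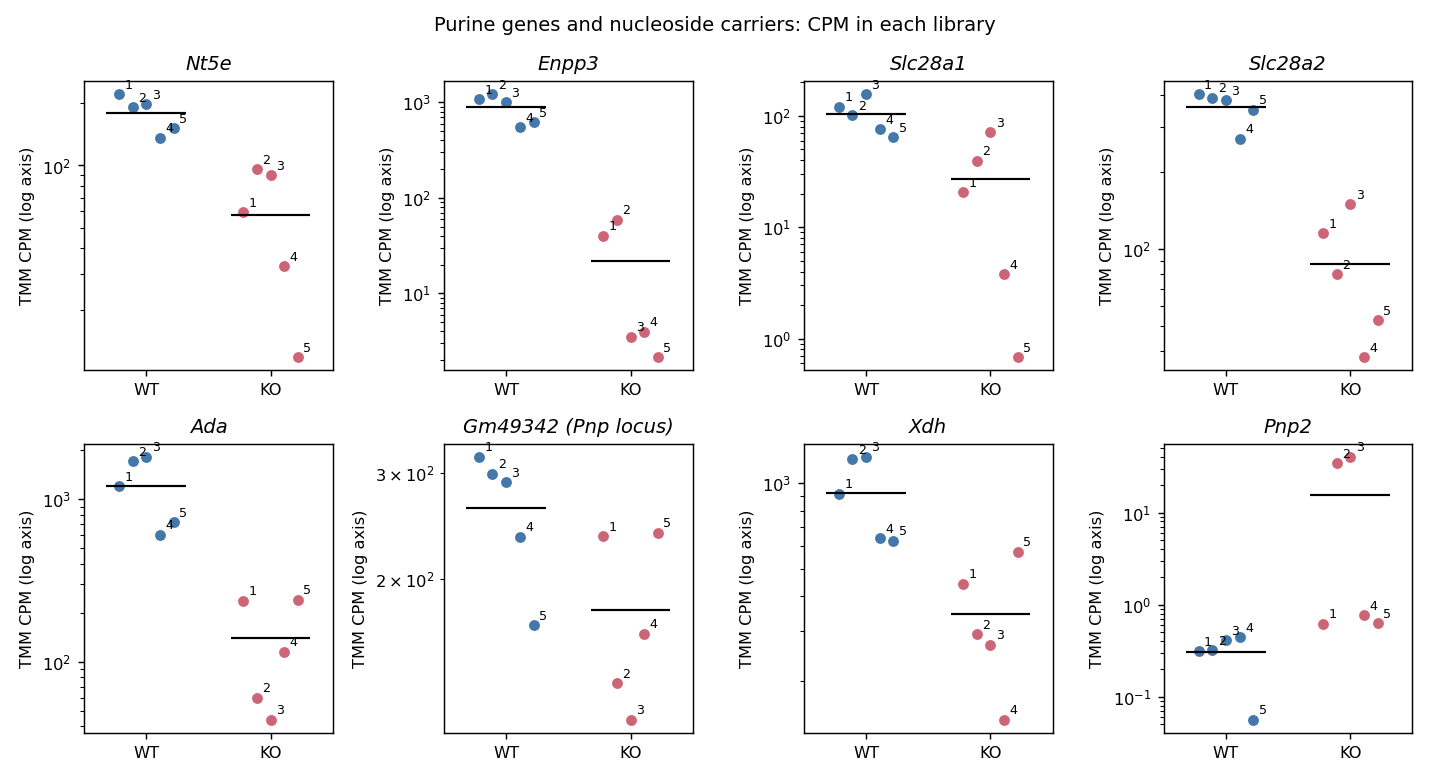
CPM of the 7 entries and of *Pnp2* in each library (log axis, TMM scaling), with points numbered by replicate and a line at the arithmetic mean of the group. In 5 entries every KO point lies below every WT point, while *Slc28a1* and the *Pnp* locus overlap, and *Pnp2* is high in KO replicates 2 and 3.

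Outside the cell, *Enpp3* showed the widest change of all members. It encodes an ectonucleotidase that cuts nucleoside triphosphates to monophosphates, and lies on the minus strand at chr10:24772406-24842823 (GRCm38) with 27 separate exon blocks. The WT libraries had 1085, 1217, 1002, 552 and 617 CPM. The KO libraries had 40.1, 58.8, 3.51, 3.96 and 2.15 CPM. KO replicates 1 and 2 thus kept more of it than the other KO libraries, and yet lay far under the lowest WT library. The mean was 41.2-fold lower, and the fit gave -5.37 on the log2 scale (standard error, SE, 0.96, adjusted p = 0.00290, edgeR), which ranked 14 from the lowest among the 15610 genes tested. The 5 KO libraries held 2021 reads of *Enpp3* in all, against 78223 in the WT libraries. By limma voom the log2 fold change was -6.54, without KO replicate 2 it was -6.18, and without KO replicates 2 and 3 it was -5.86 (adjusted p = 0.00898).

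*Nt5e* encodes CD73, the enzyme that turns extracellular AMP into adenosine. It lies on the plus strand at chr9:88327197-88372092 with 9 exon blocks. WT libraries had 221, 191, 198, 137 and 152 CPM, and KO libraries had 59.3, 96.0, 89.5, 32.5 and 11.9 CPM. Every KO library was below the lowest WT library, and KO replicate 5 was 8.10-fold below the highest KO library. On the log2 scale the change was -1.64 (SE 0.45, adjusted p = 0.0194, edgeR). A normal approximation from the SE gave a 95% interval from -2.51 to -0.76, which is narrower than the test's own interval would be. Without KO replicates 2 and 3, the highest KO libraries, it was -2.37 (adjusted p = 0.0113).

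The concentrative carriers of nucleosides, *Slc28a1* and *Slc28a2*, are both found on the apical side of enterocytes. *Slc28a2* (CNT2), which prefers purine nucleosides, lies on the plus strand at chr2:122426477-122461137 with 20 exon blocks. It had 403, 391, 382, 269.9 and 351 CPM in WT libraries and 116, 80.0, 149.7, 37.9 and 52.8 CPM in KO libraries. The groups did not overlap, and the fitted change was -2.04 on the log2 scale (SE 0.33, adjusted p = 0.00178, edgeR), or -2.38 (adjusted p = 0.00515) without KO replicates 2 and 3.

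*Slc28a1* (CNT1), which prefers pyrimidine nucleosides and also takes adenosine, lies on the plus strand at chr7:81114799-81170416 with 18 exon blocks. The WT libraries had 121, 101, 157, 76.3 and 64.6 CPM, and the KO libraries had 20.7, 39.7, 71.5, 3.76 and 0.682 CPM. KO replicate 3 was above WT replicate 5, while KO replicate 5 held only 13 reads, and the highest KO library had 105 times the CPM of the lowest. The log2 fold change was -1.93 (standard error 0.83) with an adjusted p of 0.0970 by edgeR, while an exact 2-sided permutation test of its log2 CPM gave p = 0.0159, for which 0.00794 is the smallest p possible. Without KO replicate 3 it was -2.69 (adjusted p = 0.0423), without KO replicates 2 and 3 it was -3.63 (adjusted p = 0.0226), and limma voom on all mice gave -3.21 (adjusted p = 0.0264).

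Inside the cell, *Ada*, adenosine deaminase, had the highest level per kilobase of exon in WT mice. It lies on the minus strand at chr2:163726584-163750239 with 12 exon blocks. WT libraries had 1205, 1712, 1820.3, 606 and 722 CPM. KO libraries had 237, 60.1, 43.9, 115 and 240.1 CPM. The lowest KO values were those of replicates 2 and 3, and the highest KO library had less than the lowest WT library. The mean was 8.71-fold lower, and the fit gave -3.12 on the log2 scale (SE 0.53, adjusted p = 0.00233, edgeR). Without KO replicates 2 and 3 it was -2.62 (adjusted p = 0.00850).

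*Xdh*, xanthine dehydrogenase, carries out the last oxidations to uric acid. It lies on the minus strand at chr17:73883895-73950196 with 41 exon blocks. It had 918, 1215, 1240.0, 640.3 and 626 CPM in WT libraries and 442, 293, 269.0, 146 and 573 CPM in KO libraries. KO replicate 5 came close to the lowest WT library, and the groups did not overlap. The fitted change was -1.43 on the log2 scale (SE 0.35, adjusted p = 0.0116, edgeR), and -1.26 (adjusted p = 0.0657) without KO replicates 2 and 3.

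*Pnp*, purine nucleoside phosphorylase, splits inosine and guanosine. Reads at its exons were counted under an ID named *Gm49342* in GENCODE M21, which spans chr14:50944517-50963136 on the plus strand. Of the 750 bases in its 6 exon blocks, 718 (95.7%) lie in exons of *Pnp* and 32 in exons of the neighbouring *Pnp2*. An antisense gene, *Gm38316*, overlaps these exons, and how strand was handled is not stated, so its reads cannot be told apart from those of the locus. The entry, called the *Pnp* locus here, had 319, 299, 289.7, 235 and 167 CPM in WT libraries. In KO libraries it had 235, 134, 116, 162 and 239 CPM. The KO libraries spread over the lower part of the WT range and under it, with replicates 2 and 3 lowest. The log2 fold change was -0.57 (standard error 0.24) with an adjusted p of 0.0901 by edgeR, and the exact permutation test gave p = 0.0714. Without WT replicate 5 or without KO replicate 1 the adjusted p was 0.0449 and 0.0480, with log2 fold changes of -0.69 in both cases, and without KO replicates 2 and 3 the log2 fold change was -0.31 (adjusted p = 0.339).

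*Pnp2* is a near-identical copy beside *Pnp*: of the 867 coding bases of *Pnp*, 851 (98.2%) were the same in *Pnp2*. *Pnp2* had between 0.0560 and 0.440 CPM in WT libraries. It had 0.620, 34.4, 40.3, 0.762 and 0.630 CPM in KO libraries, or 11, 655, 746, 16 and 12 reads. KO replicates 2 and 3 therefore carried nearly all of its reads. *Pnp2* rose in the fit over all mice (5.61 on the log2 scale, SE 1.41, adjusted p = 0.0135, edgeR), but it had a log2 fold change of 1.12 (adjusted p = 0.113) without these libraries and of 3.54 (adjusted p = 0.198) by limma voom. The 60 coding bases of exon 3 below are shown because they tell the copies apart at 2 places, in capitals; both are read on the plus strand of GRCm38, at chr14:50950300-50950359 for *Pnp* and at chr14:50963147-50963206 for *Pnp2*.
Pnp: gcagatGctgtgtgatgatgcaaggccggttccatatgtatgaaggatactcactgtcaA
Pnp2: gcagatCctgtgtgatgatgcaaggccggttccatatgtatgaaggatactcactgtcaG
Of the words of 50 bases in the transcripts of *Gm49342*, 54.1% are also found in *Pnp2*, so that how reads were split between the copies is uncertain. The sum of both entries was 235.8, 168, 156, 163 and 239 CPM in KO libraries and 167 to 319.7 CPM in WT libraries. In this sum KO replicates 2 and 3 were close to KO replicate 4 and still below replicates 1 and 5, and the groups overlapped.

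*Slc28a2* also has a copy close by, *Gm14085*, at chr2:122484941-122528040 on the same strand. Over the coding bases the copies were identical at 94.8% of the 1979 aligned positions. *Gm14085* was under the filter on low counts, with 0.00 to 0.560 CPM in WT libraries and 0.113, 8.45, 19.3, 0.524 and 0.00 CPM in KO libraries. The same KO replicates 2 and 3 were high here, and the exact permutation test gave p = 0.222. The 60 coding bases of exon 4 below are the window in which the copies differ most, with the 28 differing bases in capitals, at chr2:122447889-122447948 for *Slc28a2* and at chr2:122494336-122494395 for *Gm14085* (GRCm38, plus strand).
Slc28a2: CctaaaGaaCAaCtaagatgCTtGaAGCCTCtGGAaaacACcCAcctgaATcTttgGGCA
Gm14085: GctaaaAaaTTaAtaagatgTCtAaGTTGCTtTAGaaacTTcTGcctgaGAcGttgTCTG
Of the words of 50 bases in *Slc28a2*, 35.4% occur in *Gm14085*. The 8152 reads of *Slc28a2* in the KO libraries compare with 532 of *Gm14085*, and 15 in the WT libraries.

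**Figure D2:**
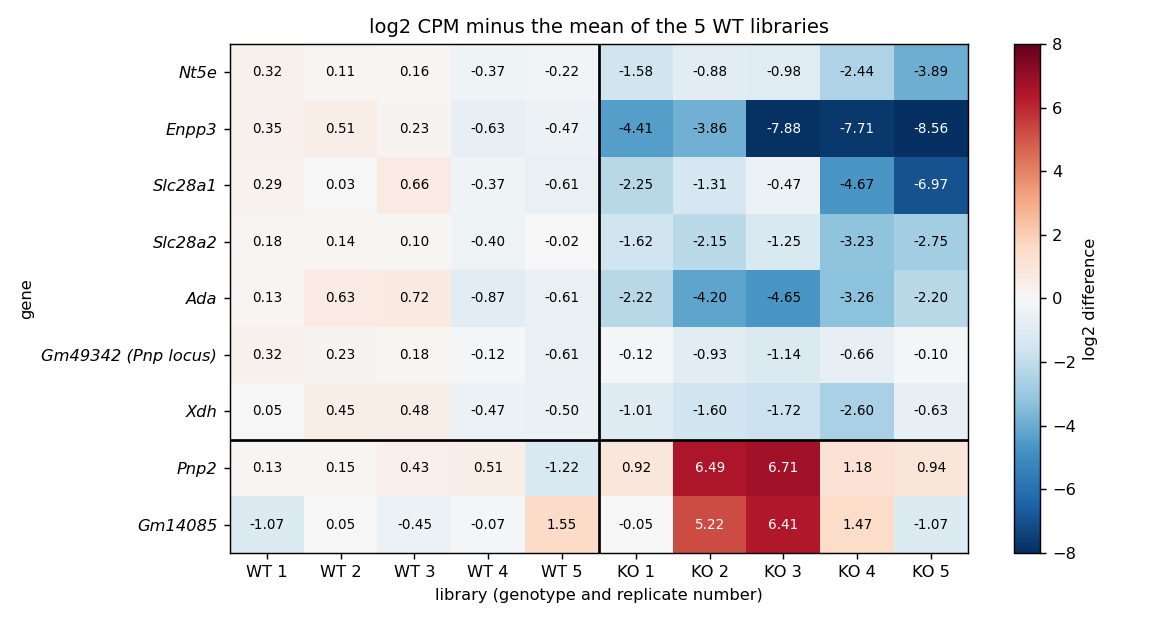
Difference of log2 CPM (prior count 2) from the mean of the 5 WT libraries, for the 7 entries (above the line) and the copies *Pnp2* and *Gm14085*, by library. The copies are high in KO replicates 2 and 3, where *Ada* and the *Pnp* locus are lowest, while *Nt5e* and *Slc28a1* are lowest in KO replicate 5.

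Levels of the members were compared with each other per kilobase of exon, whereas the most abundant gene of a list is by mean CPM, without regard to length. In WT mice *Ada* stood at 606 ± 277 CPM per kb, followed by *Enpp3* at 149 ± 48.9, *Xdh* at 101 ± 32.4, *Slc28a2* at 85.4 ± 12.8, *Slc28a1* at 35.2 ± 12.4 and *Nt5e* at 20.9 ± 4.04 (SD, n = 5). *Ada* was above *Enpp3*, and *Slc28a2* above *Slc28a1*, without overlap of the libraries, whereas *Enpp3* and *Xdh*, *Xdh* and *Slc28a2*, and *Slc28a1* and *Nt5e* overlapped. *Ada* exceeded 99.5% and *Nt5e* 83.9% of the genes tested in this measure. In KO mice the order was *Ada* (69.6 ± 47.2 CPM per kb), *Xdh* (37.6 ± 18.02), *Slc28a2* (20.7 ± 10.9), *Slc28a1* (9.24 ± 9.90), *Nt5e* (6.73 ± 4.20) and *Enpp3* (3.61 ± 4.35), and all neighbours in that order overlapped. *Enpp3* thus went from a level above 97.6% of the tested genes to one above 46.6%. The *Pnp* locus is left out of this order because the exon length used in counting is not known. In GENCODE M21 the counted ID covers only a part of the gene, but the authors' annotation is not stated.

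The members did not fall by the same factor. A ratio of 2 members within a library does not depend on scaling, and of the 21 pairs, 8 had ratios that did not overlap between the groups (exact 2-sided permutation test, p = 0.00794, adjusted p = 0.0208 over the 21 pairs, the smallest p possible before adjustment). *Enpp3* took part in 5 of them: its log2 ratio to *Slc28a1*, *Slc28a2*, *Xdh* and the *Pnp* locus changed by -3.35, -4.29, -4.97 and -5.90, and that of *Nt5e* to *Enpp3* by 4.53. *Ada* fell more than *Xdh* (change in the log2 ratio of -1.79) and more than the *Pnp* locus (-2.72), and *Xdh* fell more than the *Pnp* locus, the ratio of the locus to *Xdh* moving by 0.92. The ratio of *Enpp3* to *Ada* changed by -3.18, with overlapping groups (exact permutation test, p = 0.0476, adjusted p = 0.100). The carriers *Slc28a1* and *Slc28a2* could not be told apart in their change (-0.93, exact permutation test, p = 0.437, adjusted p = 0.509). How often pairs of other tested genes separate in this way was not computed. The 21 pairs share members and are not independent.

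KO libraries also varied among themselves more than WT libraries. The SD of log2 CPM in KO mice was 5.22 times that in WT mice for *Slc28a1*, 4.33 times for *Nt5e*, 4.25 times for *Enpp3* and 3.43 times for *Slc28a2*, where the median over all genes tested was 1.57 and 77.4% of genes had the larger SD in KO mice. *Xdh* (1.57) and *Ada* (1.56) were close to that median, and the *Pnp* locus (1.24) was under it. The order of the KO libraries differed by gene: from low to high it was replicates 5, 4, 1, 3 and 2 for *Nt5e*, and 3, 2, 4, 1 and 5 for both *Ada* and the *Pnp* locus. KO replicate 5 was thus the lowest library for *Nt5e*, *Enpp3* and *Slc28a1*, and the highest KO library for *Ada*, *Xdh* and the *Pnp* locus. Among WT mice, replicates 4 and 5 were below replicates 1 to 3 in all 7 entries, which was so for 18.9% of the genes tested. The genes of the proximal intestine were looked at for this split after their values were seen. *Onecut2* (68.1, 124, 91.6, 18.1 and 20.2 CPM in WT libraries), *Gata4*, *Pdx1* and *Slc40a1* had it, and *Cybrd1* and *Hephl1* did not. Its cause was not tested.

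**Figure D3:**
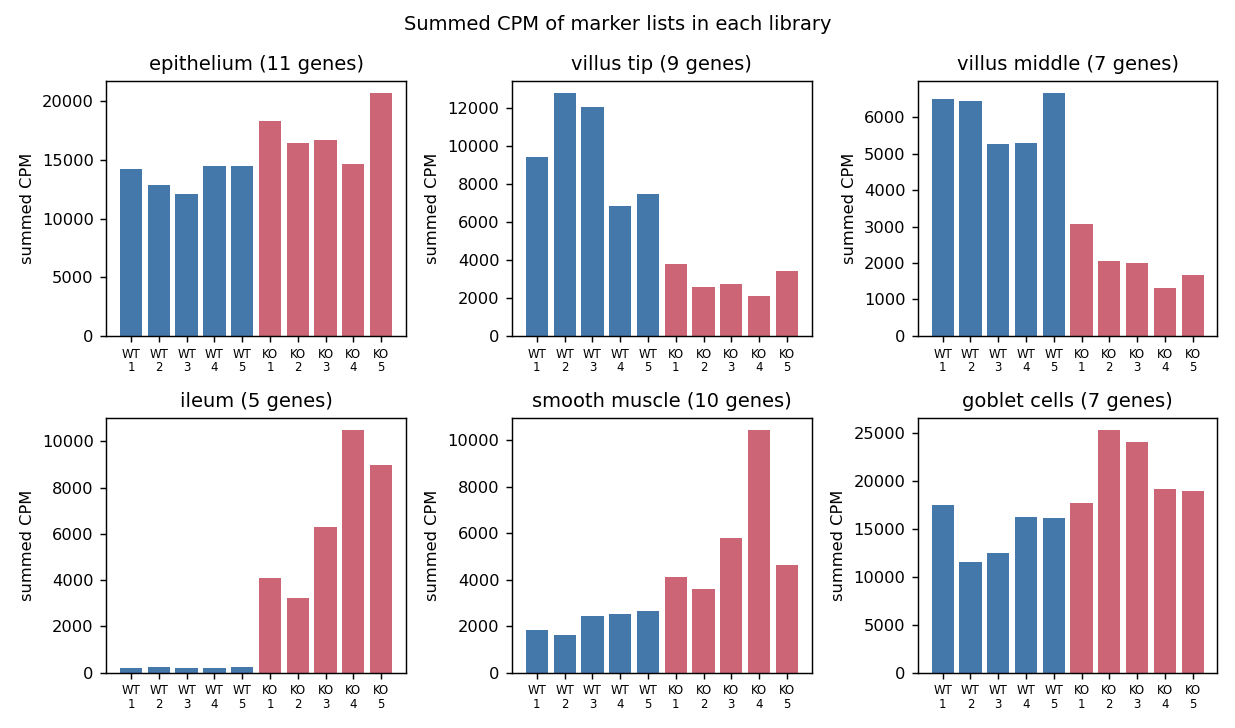
Summed CPM of 6 marker lists in each library (bars, linear axis from 0), with WT libraries in blue and KO libraries in red. Markers of ileum and smooth muscle are higher in every KO library than in any WT library, and those of villus tip and middle are lower.

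Markers of the epithelium and of other cells moved beside these genes. The summed epithelial list was higher in KO mice: 7 of its 11 genes rose, among them *Krt18* (log2 fold change 1.26), *Krt19* (1.10) and *Krt8* (0.77), the keratins of simple epithelia, 0 were called lower by edgeR or DESeq2, and its share of all counts went from 1.16-1.45% in WT to 1.58-2.08% in KO libraries without overlap. *Vil1* and *Cdh17*, genes of the enterocyte membrane named after their values were seen, had -0.49 and -0.41, with an unadjusted p under 0.05 that did not pass after adjustment (0.105 and 0.0942). In whole tissue, fewer cells of a type and less RNA per cell cannot be told apart. Set against the counts of these epithelial genes, the KO libraries were below all WT libraries for 6 of the 7 entries, *Slc28a1* included, as they were for 27.0% of the genes tested, and the *Pnp* locus overlapped. Scaling all libraries to the epithelial genes moved the median log2 fold change of all genes by -0.33 and gave 7 of 7 entries lower, where 35.2% of all genes tested were called lower, with *Slc28a1* at -2.26 (adjusted p = 0.0469) and the *Pnp* locus at -0.94 (adjusted p = 0.00682), but it also turned the split of all calls from 53.5% higher to 13.4% higher.

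Of 9 markers of the villus tip, 3 were lower: *Apoa4*, an apolipoprotein of chylomicrons and the most abundant of the list (-4.97), *Creb3l3* (-1.99) and *Fos* (-0.85). *Krt20*, *Klf4* and *Cdkn1a*, named after their values were seen, had log2 fold changes of -0.35, 0.26 and 0.30 and did not pass the test. Of 7 markers of the middle of the villus, 5 were lower, led by the hexose carrier *Slc2a2* (-4.89), the amino acid carrier *Slc7a8* (-3.10) and the fructose carrier *Slc2a5* (-2.33), with the most abundant, the glucose carrier *Slc5a1*, at -1.77. Of 10 smooth muscle genes, 9 were higher, led by *Actg2* (2.01), *Cnn1* (2.01) and *Tagln* (1.94), with *Myh11*, the most abundant of the list, at 1.31. Their summed level was 1626-2659 CPM in WT and 3598-10438 CPM in KO libraries, and KO replicate 4 had the most. With the mean log2 CPM of these genes as a covariate, 0 of the 7 entries (2 at an unadjusted p under 0.05, *Enpp3* and *Ada*) and 8 lower and 10 higher genes of all were called by edgeR, with log2 fold changes of -0.030 for *Xdh* (SE 0.47), -0.034 for the *Pnp* locus (SE 0.42), -0.85 for *Slc28a1* (SE 1.89), -0.85 for *Nt5e*, -1.26 for *Slc28a2*, -2.18 for *Ada* and -2.72 for *Enpp3*. The groups did not overlap in this score, and its part in the members' values and genotype cannot be told apart. Of 9 lymphocyte genes, 0 were called in either direction by edgeR, with 3 at an unadjusted p under 0.05, and DESeq2 called 1 lower and 1 higher. The most abundant of them, *Jchain*, had a log2 fold change of -0.47 (adjusted p = 0.364).

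**Figure D4:**
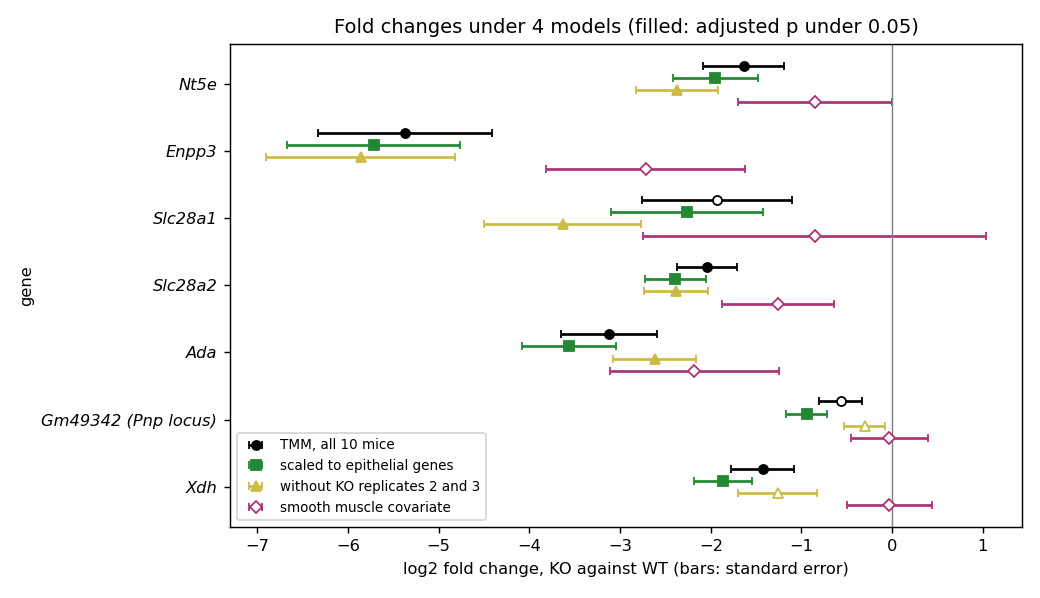
Log2 fold changes of the 7 entries, KO against WT, with standard errors as bars, from edgeR with 4 models or sample sets (symbols), filled where the adjusted p is under 0.05. *Enpp3* and *Ada* lie farthest from 0 with TMM on all mice (-5.37 and -3.12), and with the smooth muscle covariate no entry is called.

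The other genes of purine and pyrimidine metabolism did not fall as a body. Over 7 lists with 83 genes, 76 were tested, of which 16 (21.1%) were lower and 15 (19.7%) higher, with a median log2 fold change of -0.04, beside 13.9% lower and 16.0% higher over all genes tested. All 16 lower genes were also lower when the libraries were scaled to the epithelial genes, but only 4 of the 15 higher genes were still called then, so that the split became 34 lower and 4 higher, where 35.2% of all genes tested were lower and 5.45% higher. With scaling by library size only, 14 of the 16 lower genes were called, and *Aprt* and *Slc43a3* were not. The higher calls below are therefore given with their scaled values where these did not pass.

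Among 19 tested genes of purine salvage and breakdown, 2 were lower and 6 higher. *Gda*, guanine deaminase, which makes xanthine from guanine upstream of *Xdh*, was the most abundant and fell from 1223 ± 273 to 318 ± 158 CPM (log2 fold change -1.94, adjusted p = 0.00244, edgeR), with no overlap. *Aprt*, which returns adenine to AMP, fell by 0.48 on the log2 scale (adjusted p = 0.0372, edgeR; -0.36 and adjusted p = 0.0933 by library size only). On the other side, *Adk*, the kinase that turns adenosine into AMP and so competes with *Ada* for it, rose from 61.6 ± 7.57 to 97.6 ± 17.8 CPM (0.66, adjusted p = 0.00602; 0.34 and adjusted p = 0.0765 with epithelial scaling). *Hprt*, which salvages hypoxanthine and guanine and is named after its values were seen, had 0.33 (adjusted p = 0.0247) and 0.01 with epithelial scaling. *Nt5c3b*, a cytosolic nucleotidase, had 0.62 (adjusted p = 0.0260) and 0.32 with epithelial scaling.

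Of 14 tested genes of ectonucleotidases and related enzymes beside the members, 4 were lower and 3 higher. Not all of these enzymes act outside the cell. *Entpd7* fell by 2.19 (adjusted p = 0.000716), *Bst1*, an enzyme of NAD breakdown, by 1.78 (adjusted p = 0.00694) and *Entpd5*, the most abundant, by 0.89 on the log2 scale (adjusted p = 0.00860, edgeR). *Cd38* (0.62), *Enpp4* (0.50) and *Enpp5* (0.44) were higher, at 0.25, 0.19 and 0.11 with epithelial scaling, where none passed. The fall of *Enpp3* was not shared by *Enpp1*, a relative with the same activity named after its values were seen, which had 20.3 ± 1.09 CPM in WT and 19.6 ± 2.42 CPM in KO mice (log2 fold change -0.05, adjusted p = 0.755, edgeR). *Entpd1* (CD39), which produces the AMP that *Nt5e* uses and is also named after its values were seen, had 30.0 ± 2.26 and 23.4 ± 5.69 CPM (log2 fold change -0.36, adjusted p = 0.0913).

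Of 7 other tested carriers of nucleosides and bases, *Slc23a4* (-1.81, adjusted p = 0.00278), which carries nucleobases, and *Slc43a3* (-0.38, adjusted p = 0.0315, and 0.108 by library size only) were lower, and *Slc29a4* was higher (1.45, adjusted p = 0.00369, edgeR) at only 3.17 ± 0.903 CPM in KO mice. Of 5 carriers of urate, the product of *Xdh*, *Slc2a9* fell by 0.64 on the log2 scale (adjusted p = 0.0176), *Slc2a12* rose by 1.76 at a low level, and *Abcg2*, which pumps urate into the lumen, rose from 128 ± 17.5 to 246 ± 54.5 CPM (0.95, adjusted p = 0.00192). *Abcg2* was also higher with epithelial scaling (0.60, adjusted p = 0.0133).

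Adenosine acts on receptors that couple to G proteins. Of 5 tested genes for these receptors and a protein that binds adenosine deaminase, 2 were lower and 0 higher. *Adora2b* fell from 18.6 ± 4.86 to 1.10 ± 1.12 CPM (log2 fold change -4.07, adjusted p = 0.000925, edgeR), with no overlap. *Adora3* also fell (-1.997, adjusted p = 0.00938), at only 1.21 ± 0.516 CPM in WT mice. The receptors *Adora1* (0.15, adjusted p = 0.756) and *Adora2a* (0.22, adjusted p = 0.331), named after their values were seen, did not pass. *Dpp4* (CD26), the most abundant of this list, which binds adenosine deaminase at the surface of cells, had 974 ± 174 and 673 ± 205 CPM, a log2 fold change of -0.53 that did not pass (adjusted p = 0.0781).

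Of 13 genes for the synthesis of purines from small precursors, 1 was lower and 2 were higher. *Adss*, the most abundant, fell by 0.74 on the log2 scale (adjusted p = 0.00178), while *Impdh1* (0.64, adjusted p = 0.00394) and *Paics* (0.30, adjusted p = 0.0252) were higher. With epithelial scaling they had 0.32 and -0.02, so that the direction of *Paics* turned. Of 13 tested genes of pyrimidine salvage and breakdown, 4 were lower and 1 higher. *Cda*, which deaminates cytidine as *Ada* deaminates adenosine, fell by 2.09 (adjusted p = 0.00211), *Upb1* by 1.99 (adjusted p = 0.00237) and *Tymp* by 1.52 on the log2 scale (adjusted p = 0.000623, edgeR). *Tk2* rose by 0.98 (adjusted p = 0.0147; 0.69 and adjusted p = 0.0906 with epithelial scaling), and the most abundant gene, *Cmpk1*, had a log2 fold change of 0.12 (adjusted p = 0.359).

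**Figure D5:**
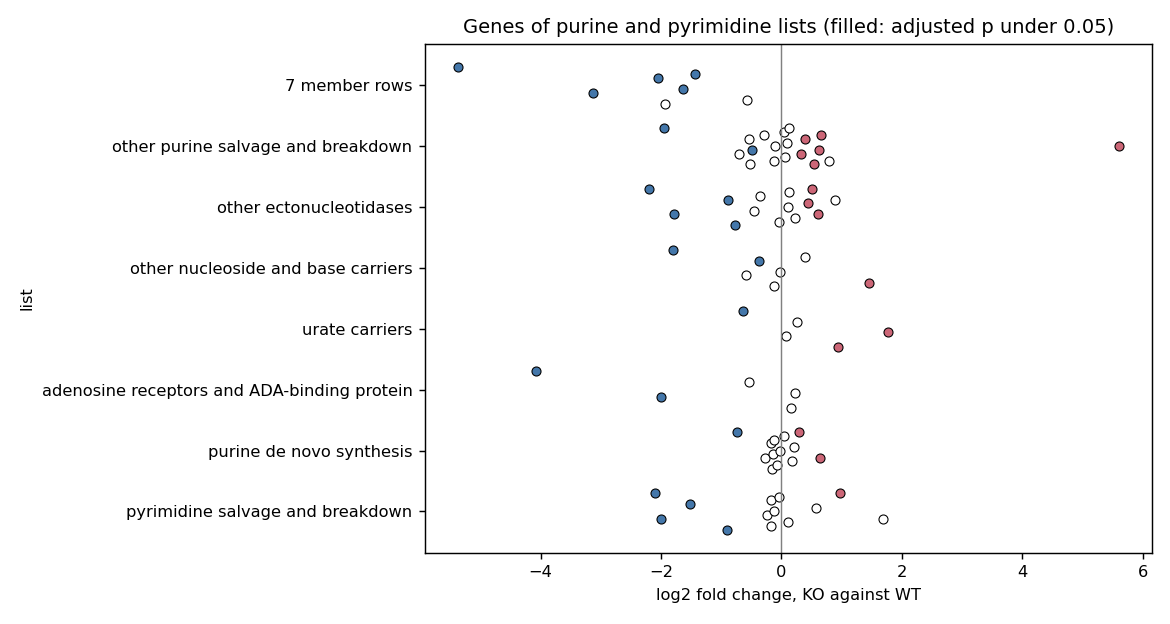
Log2 fold change (KO against WT, TMM) of each tested gene in the 7 lists and of the 7 entries, as points filled blue (lower) or red (higher) where the adjusted p is under 0.05. The 7 entries all lie left of 0, while the lists spread to both sides, with *Adora2b* at -4.07 and *Pnp2* at 5.61 farthest out among their genes.

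Genes with the profile most like that of each member over the 10 libraries were found by the mean absolute distance of log2 CPM, each gene centred on its own mean. *Slc2a2* (0.41) and *Apoa4* (0.42) were nearest to *Enpp3*, and *Slc2a5* (0.25), after the glutamate receptor subunit *Grin2d* (0.20), was near to *Slc28a2*. The nearest to *Ada* were *2210407C18Rik* (0.30) and the aquaporin *Aqp3* (0.39). *Nt5e* had *Alpk3* (0.32) and *Tph1* (0.32), the enzyme of serotonin synthesis outside neurons, *Xdh* had *Rmdn3* (0.19) and *Prg2* (0.20), and the *Pnp* locus had *Ms4a12* and *Plin3* (0.15 each). *Slc28a1* had no gene closer than *Cebpe* and *Trim38* (0.71 each). These distances describe 10 libraries that share their groups, and no test was made on them.

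The windows of 250 bases before the RefSeq start sites (GRCm38.p6) were read for 6 of the 7 members; *Xdh* had no entry. They are shown for *Ada* and *Slc28a2*, members called lower whose window holds no exon, which stand far apart in base composition, with 67.2% and 45.2% G or C. The motifs searched on both strands were the GC box (GGGCGG), the TATA box (TATAAA), and letters read by factors of the GATA family (AGATAA), CDX (TTTATNG), HNF1 (GTTAAT) and HNF4 (CAAAGT), and capitals mark the matches.
Ada, chr2:163750240-163750489, minus strand: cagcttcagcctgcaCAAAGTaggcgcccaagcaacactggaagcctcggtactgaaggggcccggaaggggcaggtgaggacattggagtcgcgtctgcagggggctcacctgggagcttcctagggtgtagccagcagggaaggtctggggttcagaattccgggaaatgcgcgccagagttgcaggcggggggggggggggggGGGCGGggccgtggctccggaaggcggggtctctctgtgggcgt
Slc28a2, chr2:122426185-122426434, plus strand: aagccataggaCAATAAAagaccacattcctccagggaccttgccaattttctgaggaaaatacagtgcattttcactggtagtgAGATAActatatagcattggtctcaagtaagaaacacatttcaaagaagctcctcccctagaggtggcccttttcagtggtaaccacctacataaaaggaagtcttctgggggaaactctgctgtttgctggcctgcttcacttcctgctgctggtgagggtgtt
The window of *Ada* holds a GC box 44 bases and an HNF4 match 235 bases before the start, and that of *Slc28a2* a GATA match at 165 and a CDX match, read on the other strand, at 239 bases. GC boxes were also present in the windows of *Nt5e*, *Slc28a1* and *Pnp*, and TATA box letters, read on the other strand, in that of *Enpp3*. The windows of *Nt5e*, *Enpp3* and *Pnp* lie inside the gene spans of GENCODE M21. They hold 250, 30 and 1 exon bases, so the *Nt5e* matches lie wholly within an exon. Of 32851 such windows in the genome, 32.7% hold the GC box, 12.4% the TATA box, 9.99% the GATA, 9.81% the CDX, 6.43% the HNF1 and 12.6% the HNF4 letters. A match describes the letters only.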

How the data were processed

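The authors deposited, per library, raw counts of reads on 35275 Ensembl gene IDs, as whole numbers without normalization. Libraries were made with a SMARTER mRNA-Seq kit from total RNA. The submitters' processing notes name FastQC 0.11.9, Trimmomatic, HISAT2 2.0.4, SAMtools 1.3.1, DESeq2 1.14.1 and the build GRCm38 (mm10). For the read counter, the annotation and the use of strand, the sources used here say nothing. Totals were 16729787 to 20819678 counts in WT and 17118742 to 19414828 in KO libraries, and 0 counts allow at most 3 at 95% confidence, for counting error only.

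Symbols and positions came from GENCODE M21, which named 34490 IDs. Counts were tested with edgeR 4.0.16 (R 4.3.3; TMM, quasi-likelihood, filter at a count of 10 and a total of 15), KO against WT without covariates, with Benjamini-Hochberg adjustment over 15610 genes and a threshold of 0.05. Log2 CPM used a prior count of 2. Exact permutation tests ran over all assignments of the 10 libraries to 2 groups of 5. P-values measure the spread between mice.

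The 7 members, the 23 lists of 194 genes and the tests were chosen with earlier results of these data known. Named are the members, their copies and *Slc39a14*, in each list the 3 called genes with the largest change in each direction and the most abundant gene by mean CPM, and the 2 nearest profiles per member; other names are marked. Alternatives were RLE normalization, library size only, robust dispersion, no filter, a filter on the mean count (10 or more), the replicate number as a block, epithelial scaling, a smooth muscle covariate, limma voom (3.58.1), DESeq2 (1.42.0), a smaller prior count for the ratios of members and leaving out each mouse. Leaving out KO replicates 2 and 3 together was added after seeing the data.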

Additional observations from a re-analysis of the deposited data

Results flagged for a closer look

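*Gm14085*, the copy of *Slc28a2*, had 0.560 CPM (10 reads) in WT replicate 5, where the other WT libraries had 0, 1 or 2 reads. Its gap to the next library, as a share of the range of the WT libraries, was 0.772, above the critical value of Dixon's test for 5 samples. Of 18 groups tested in this way, chance marks about 1 in 20.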

How the results depend on the processing

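The log2 fold changes of all 7 entries were below 0 under every alternative, though those of *Xdh*, *Nt5e*, *Slc28a1* and the *Pnp* locus were within a standard error of 0 with the smooth muscle covariate, and *Nt5e*, *Enpp3*, *Slc28a2* and *Ada* stayed called under each except the smooth muscle covariate. With that covariate the log2 fold changes were -0.85 for *Nt5e*, -2.72 for *Enpp3*, -1.26 for *Slc28a2*, -2.18 for *Ada*, -0.85 for *Slc28a1*, -0.034 for the *Pnp* locus and -0.030 for *Xdh*, with 0 entries, 8 lower and 10 higher genes of all, and 0 lower and 0 higher pathway genes called. With epithelial scaling, *Slc28a1* (-2.26) and the *Pnp* locus (-0.94) were called, with 5491 lower and 850 higher genes of all and 34 lower and 4 higher pathway genes. Scaling by library size only gave 69.4% of all calls as higher, in place of 53.5%, and moved the median of all genes by 0.12. *Slc28a1* was also called by limma voom (-3.21) and without KO replicates 2 and 3 (-3.63), where *Xdh* was not (-1.26) and 9 pathway genes were higher. The cause was not tested.

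Leaving out single mice, the log2 fold changes ranged from -1.91 to -1.37 for *Nt5e*, -6.18 to -5.07 for *Enpp3*, -2.69 to -1.62 for *Slc28a1*, -2.34 to -1.85 for *Slc28a2*, -3.41 to -2.90 for *Ada*, -0.70 to -0.46 for the *Pnp* locus, -1.69 to -1.23 for *Xdh* and 4.84 to 5.92 for *Pnp2*. The entries called numbered 5 to 6, the pathway genes 14 to 22 lower and 9 to 17 higher, all genes 1573 to 2563 lower and 1634 to 2944 higher, and the pairs without overlap 8 to 12. The fewest higher genes, 1634 of all and 9 of the pathways, came without WT replicate 2. With the replicate number as a block, *Slc28a1* was called (-2.87, adjusted p = 0.0337) and no other entry changed its call, with *Enpp3* at -6.48. Deviations of same-numbered mice from their group means correlated between -0.167 and 0.177. The labels do not say whether the numbers pair mice, and these correlations cannot settle it.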

Other observations

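Of 11 tested transcription factors of the intestine, 4 were lower and 2 higher in KO mice. *Onecut2* (-6.24), *Gata4* (-3.56) and *Gata6* (-1.27) fell, and *Cdx1* (0.92) and *Cdx2* (0.78) rose. *Hnf4a*, the most abundant, had a log2 fold change of 0.27 (adjusted p = 0.234, edgeR). Of 7 goblet cell genes, 5 were higher, led by *Clca1* (1.69), *Spink4* (1.68) and *Muc2* (1.31), while the most abundant, *Fcgbp*, had -0.24 (adjusted p = 0.398).

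In the lower villus list, *Reg1* (-6.50) and *Il18* (-2.35) fell among 6 genes, and *Reg3b*, the most abundant, had 0.91 (adjusted p = 0.305). Among 4 crypt stem cell genes *Ascl2* rose (0.51), and *Olfm4*, the most abundant, had -0.85 (adjusted p = 0.106). Among 6 fibroblast genes *Lum* (1.503) and *Dcn* (0.86) rose, and *Col3a1*, the most abundant, had 0.10 (adjusted p = 0.738). *Csf1r* (-0.83) among 6 macrophage genes fell, and *Lyz2*, the most abundant, had 0.41 (adjusted p = 0.0860). *Kdr* fell (-0.71) and *Cldn5* rose (0.89) among 6 endothelial genes, and *Pecam1*, the most abundant, had 0.11 (adjusted p = 0.577), while *Cpa3* fell (-1.68) and *Kit* rose (1.16) among 4 tested mast cell genes. Pancreatic acinar genes summed to at most 14.0 CPM in any library, and *Ctrb1*, the most abundant and the 1 tested, did not pass (1.001, adjusted p = 0.484).

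The genes with the profile nearest to that of *Pnp2*, looked up after its values were seen, were *Gm8730* and *Gm10036*. KO replicates 2 and 3 carried most of their level in KO mice too. *Gm8730* averaged 1.45 CPM in WT libraries and had 1.75, 418.5, 228, 2.67 and 2.15 CPM in KO libraries. *Gm10036* averaged 0.964 CPM in WT libraries and had 1.52, 34.0, 44.1, 1.10 and 1.73 CPM in KO libraries.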
